A study of Caenorhabditis elegans with 12 samples.

Results

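The genes described here are 5 genes of the nematode Caenorhabditis elegans that supply and start protein N-glycosylation: gfat-1, gfat-2, gna-1 and gna-2 of the hexosamine pathway, and algn-7, which acts where that pathway feeds the glycan precursor. They were measured through every probe set that the platform annotation assigns to one of these genes and to no other gene. This gave 6 of 22548 probe sets on the array, 2 for gfat-2 and 1 for each of the other genes, against 17118 genes that have such a probe set in all. The samples were whole-body RNA of synchronized L1 larvae, the earliest larval stage, collected 24 h after eggs were plated without bacteria. There were 4 groups of 3 arrays: the wild-type strain N2 kept in the solvent DMSO as vehicle, N2 kept in tunicamycin, manf-1(tm3603) mutants in DMSO, and manf-1(tm3603) mutants in tunicamycin, each for 5 h. The dose carries the number 5 in the labels, with units that disagree (ug per mL in one field, ug per uL in another). The gene manf-1 encodes the worm form of MANF, a secreted protein of the endoplasmic reticulum (ER), and no signal of manf-1 itself was analysed here as a check of genotype. Each genotype is 1 strain. The labels do not say whether the 3 arrays of a group stem from separate cultures, and the p-values therefore cover the spread among these samples, which may be technical.

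The hexosamine pathway draws a fructose phosphate off glycolysis and turns it, with glutamine, into UDP-N-acetylglucosamine. GFAT enzymes carry out the entry step, which sets the flux in many organisms, and GNA enzymes then acetylate the glucosamine phosphate. UDP-N-acetylglucosamine is the sugar donor for O-GlcNAc on proteins, for chitin and for N-glycans. N-glycosylation starts when an enzyme of the ER membrane, encoded in the worm by algn-7 and in mammals by DPAGT1, joins that sugar's phosphate to the lipid dolichol phosphate. Tunicamycin inhibits this step, so nascent glycoproteins lack glycans, misfold in the ER and engage the unfolded protein response.

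Signals are log2 values of Affymetrix probe sets, so a difference of 1 is a 2-fold change, and probe sets of different genes cannot be compared in level. Control probe sets for bacterial and yeast sequences, used here as a measure of background, had 95% of their signals at or below 3.34, called the background percentile here. Arrays of 1 group had Spearman correlations from 0.917 to 0.956, and array medians lay between 3.957 and 4.052. The difference between 3′ and 5′ probe sets over 5 worm control transcripts was lowest on the array numbered 2 in 4 of 4 groups. It spanned 0.69 to 1.56 with vehicle and 1.17 to 1.85 with tunicamycin. Sums of marker genes are given here as the log2 of their added linear signals, so the brightest gene weighs most. For the ER chaperone genes hsp-4 and hsp-3, which respond to unfolded proteins, the sum was 10.05 to 10.25 on the vehicle arrays. It was 12.19 to 12.89 on the tunicamycin arrays. Markers of intestine, hypodermis, body wall muscle, pharynx and neurons were above the background percentile on all 12 arrays for 25 of 29 genes. Of 11 adult germline, eggshell and yolk genes, which should be low in L1, only vit-6 and msp-3 were above it on all arrays, and egg-1, rme-2 and gsp-3 on none. The intestine sum was 11.66 to 12 with vehicle and 10.75 to 11.37 with tunicamycin in wild type, and 11.33 to 12.03 and 10.83 to 10.92 in mutants. Its brightest gene, asp-1, changed by -1.26 in wild type and -0.94 in mutants. The other intestine genes ran from -0.86 (elt-2) to -0.01 (ifb-2) in wild type and from -1.10 (ges-1) to 0.43 (pept-1) in mutants. The hypodermis sum was 10.30 to 10.82 and 9.58 to 10.13 in wild type, and 9.16 to 10.47 and 8.60 to 9.37 in mutants, where the groups overlapped. The neuron sum was 12.06 to 12.18 and 11.59 to 11.98 in wild type, without overlap, and 11.90 to 12.35 and 11.89 to 12.06 in mutants. The muscle sum stayed between 12.93 and 13.50 and the pharynx sum between 7.91 and 10.98 over all arrays, and both overlapped between treatments in each genotype. The part of tissue makeup in the results that follow was not tested, and in whole larvae fewer cells of a type and less RNA per cell cannot be told apart.

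Of the 6 probe sets, those of gfat-1, gna-1 and algn-7 passed a filter on dim signals, which required a value above the 40th percentile of the array (3.24 to 3.30) on at least 3 arrays. Both gfat-2 probe sets and the gna-2 probe set did not. Tests compared the group means of all 12 arrays with limma over the 14709 probe sets that passed, with Benjamini-Hochberg adjustment within each contrast and a threshold of 0.05.

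**Figure D1:**
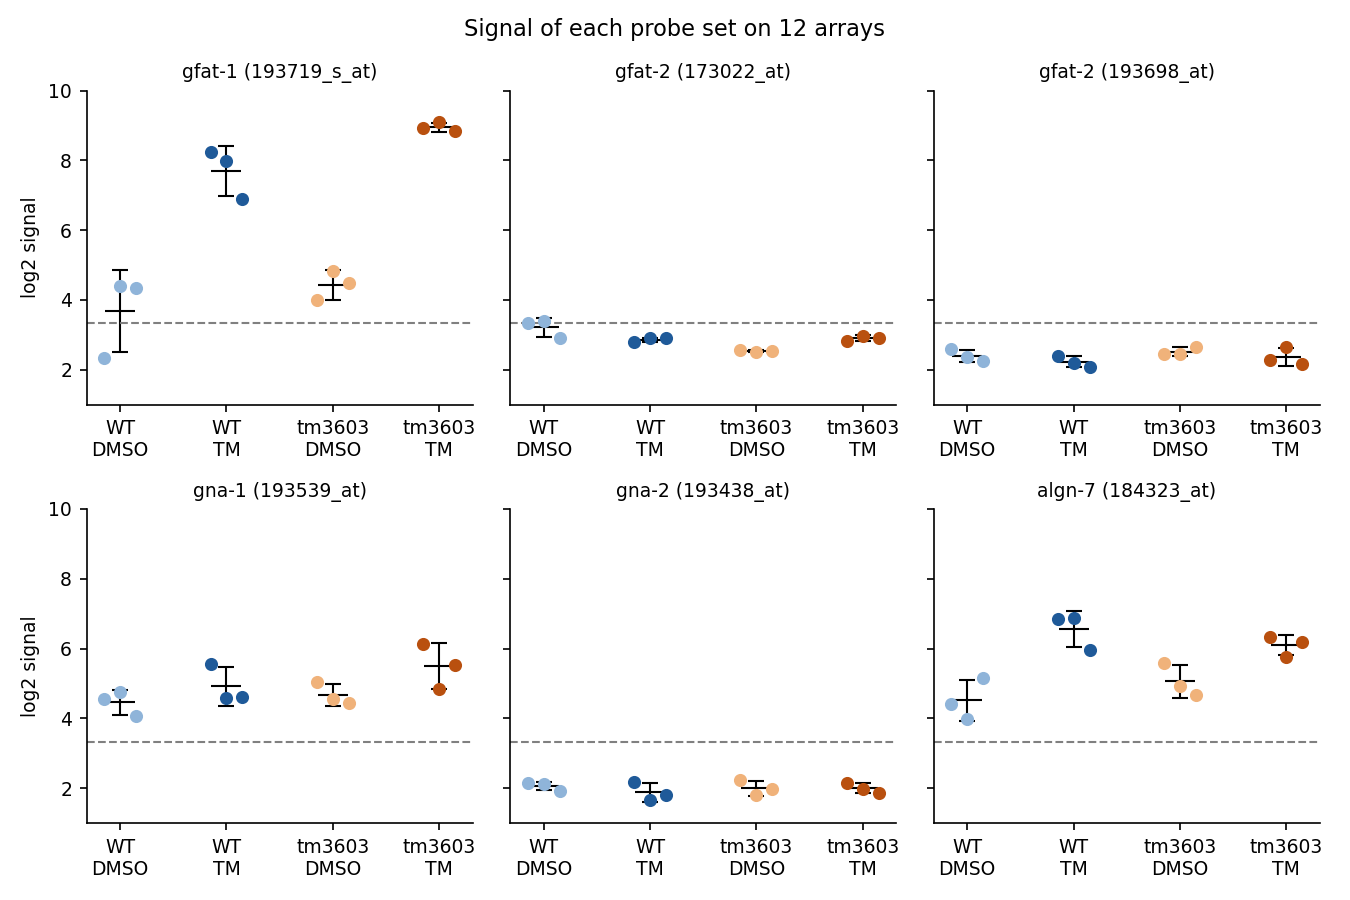
Log2 signal (vertical axis) of each of the 6 probe sets on the 12 arrays, by genotype and treatment, with 1 point per array, a bar at the mean of 3 arrays and whiskers of 1 SD; the dashed line marks the background controls' 95th percentile of 3.34. The signal of gfat-1 lies between 2.33 and 4.84 with DMSO and between 6.88 and 9.09 with tunicamycin (TM), algn-7 is higher on every TM array than on any DMSO array, and the gna-2 points stay between 1.67 and 2.24.

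The entry enzyme gene gfat-1 rose in both genotypes and was among the largest changes on the array. Its probe set, 193719_s_at, had signals of 2.33, 4.39 and 4.35 on wild-type vehicle arrays 1 to 3 and of 8.25, 7.97 and 6.88 on wild-type tunicamycin arrays 1 to 3. In manf-1 mutants it had 3.99, 4.84 and 4.48 with vehicle and 8.92, 9.09 and 8.85 with tunicamycin. No tunicamycin array overlapped a vehicle array, with 6.88 as the lowest treated and 4.84 as the highest untreated value. Higher signals without overlap were found for 1.06% of tested probe sets over these 6 treated and 6 untreated arrays. Within a genotype the share was 5.43% in wild type and 7.55% among mutants. Within each array's own ranking of probe sets, gfat-1 moved from between the 19.8th and 59.7th percentile with vehicle to between the 83.4th and 95.6th with tunicamycin.

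The wild-type mean of gfat-1 was 3.69 ± 1.18 with vehicle and 7.70 ± 0.72 with tunicamycin (SD, n = 3 each). The log2 change was 4.01 (SE 0.53, 95% interval 2.87 to 5.15, limma adjusted p = 0.00235), which is 16.1-fold. In this contrast 0.36% of tested probe sets rose, and gfat-1 had the 3rd largest log2 change of 14709. Vehicle array 1, at 2.33, lay at the background level and the other 2 did not. Without it the change was 3.33 (adjusted p = 0.00507), and with that array set to the background percentile it was 3.67, or 12.8-fold. Adding an offset of 16 to the linear signals, which compresses dim values, gave 2.89 (adjusted p = 0.00139). A fit of the 6 wild-type arrays alone lost the call (adjusted p = 0.0624).

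In manf-1 mutants the means of gfat-1 were 4.43 ± 0.43 and 8.95 ± 0.13 (SD, n = 3 each), and the rise was 4.52 (SE 0.53, 95% interval 3.38 to 5.66, limma adjusted p = 0.000441), which is 22.9-fold. Here 0.659% of tested probe sets rose, and gfat-1 ranked 5th by size. All 3 mutant vehicle arrays were above the background percentile, though array 1, at 3.99, lay within the range of the background controls, which reached 4.015. Without that array the rise was 4.30 (adjusted p = 0.00389). The offset of 16 gave 3.76 (adjusted p = 7.04e-05). Averaged over both genotypes, 6 arrays against 6, the rise was 4.26 (SE 0.38, 95% interval 3.46 to 5.07, limma adjusted p = 1.47e-05), and it was 4.44 (adjusted p = 0.00167) without the 4 arrays numbered 2.

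The letter s in the name of this probe set marks, in Affymetrix's naming, probes that can match more than 1 transcript. The annotation assigns it to gfat-1 alone, and the array reading cannot separate gfat-1 transcripts from one another or from a close relative. Both probe sets of its paralogue gfat-2 were dim in every group and gave no rise past the threshold. Whether gfat-2 transcripts add to the gfat-1 reading was not tested.

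The other GFAT gene, gfat-2, stayed at or near background. Its probe set 193698_at had signals from 2.09 to 2.66 over the 12 arrays, all below the background percentile of 3.34. Its probe set 173022_at had 3.34, 3.4 and 2.91 with vehicle in wild type and 2.79, 2.90 and 2.90 with tunicamycin. In mutants 173022_at had 2.58, 2.51 and 2.53 with vehicle and 2.81, 2.98 and 2.92 with tunicamycin. Only wild-type vehicle arrays 1 and 2 were above the background percentile. The wild-type arrays were lower with tunicamycin, though the nearest values were 2.91 and 2.90, and the mutant arrays were higher, in neither case with overlap. Among probe sets that passed the filter, which this one did not, 5.44% were lower without overlap in wild type and 7.55% higher without overlap in mutants. When all 22548 probe sets were tested, the log2 differences of 173022_at were -0.35 (SE 0.20, limma adjusted p = 0.812) in wild type and 0.36 (SE 0.20, adjusted p = 0.769) in mutants. Those of 193698_at were -0.17 and -0.15 (SE 0.18 each, adjusted p = 0.911 and 0.935).

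The step after entry is carried by gna-1 and gna-2, which both encode glucosamine phosphate N-acetyltransferases. Neither passed the threshold. The probe set of gna-1, 193539_at, had 4.56, 4.76 and 4.07 with vehicle and 5.55, 4.59 and 4.62 with tunicamycin in wild type. In mutants it had 5.03, 4.56 and 4.44 with vehicle and 6.14, 4.84 and 5.52 with tunicamycin. All 12 values were above the background percentile, and in both genotypes the treated and untreated arrays overlapped.

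The log2 change of gna-1 was 0.46 (SE 0.42, 95% interval -0.44 to 1.36, limma adjusted p = 0.857) in wild type and 0.82 (SE 0.42, interval -0.08 to 1.73, adjusted p = 0.631) in mutants. Averaged over genotypes it was 0.64 (SE 0.30, interval 0.00 to 1.28) with an unadjusted p of 0.0488 and an adjusted p of 0.441 by limma. These intervals leave room for anything from no change to a rise of 2.43-fold in the average. They do not reach the size of the gfat-1 change, whose interval for the average starts at 10.97-fold.

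The probe set of gna-2, 193438_at, lay between 1.67 and 2.24 on all 12 arrays, below the background percentile on each. In the worm gna-2 is known for its part in making the chitin of the eggshell. The eggshell chitin synthase gene chs-1 did not pass the filter on dim signals either. Without the filter the log2 differences of gna-2 with tunicamycin were -0.19 (SE 0.16, limma adjusted p = 0.886) in wild type and -0.01 (SE 0.16, adjusted p = 0.999) in mutants. At this signal level a fall or a small rise of gna-2 was not detectable, and no tunicamycin array rose above the background percentile.

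The gene of the drug's target, algn-7, was higher with tunicamycin on every array. Its probe set, 184323_at, had 4.41, 3.98 and 5.15 with vehicle and 6.86, 6.87 and 5.96 with tunicamycin in wild type. In mutants it had 5.59, 4.94 and 4.68 with vehicle and 6.33, 5.77 and 6.20 with tunicamycin. The 6 treated values lay between 5.77 and 6.87 and the 6 untreated ones between 3.98 and 5.59, with no overlap. Wild-type vehicle array 2, at 3.98, lay within the range of the background controls, which reached 4.015. A higher signal without overlap was found for 1.06% of tested probe sets in this comparison of 6 against 6 arrays.

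Averaged over genotypes algn-7 rose by 1.54 (SE 0.30, 95% interval 0.90 to 2.17, limma adjusted p = 0.015), which is 2.90-fold. In this contrast 1.17% of tested probe sets rose, and algn-7 was 108th by size of the change where gfat-1 was 3rd. Within a single genotype algn-7 did not pass. The change was 2.05 (SE 0.42, 95% interval 1.15 to 2.95, adjusted p = 0.0554) in wild type and 1.03 (SE 0.42, interval 0.13 to 1.93, adjusted p = 0.45) in mutants. Of 22 alternatives in wild type, 18 did not pass either, with adjusted p-values up to 0.491 (without the 4 arrays numbered 2). The 4 that passed left out vehicle array 3 (2.36, adjusted p = 0.0449), used quantile normalization (adjusted p = 0.0472), left out the mean-variance trend (adjusted p = 0.0487) or set the filter at the 60th percentile (adjusted p = 0.0346). The averaged change of algn-7 did not pass without the 4 arrays numbered 2, where it was 1.37 (adjusted p = 0.138).

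**Figure D2:**
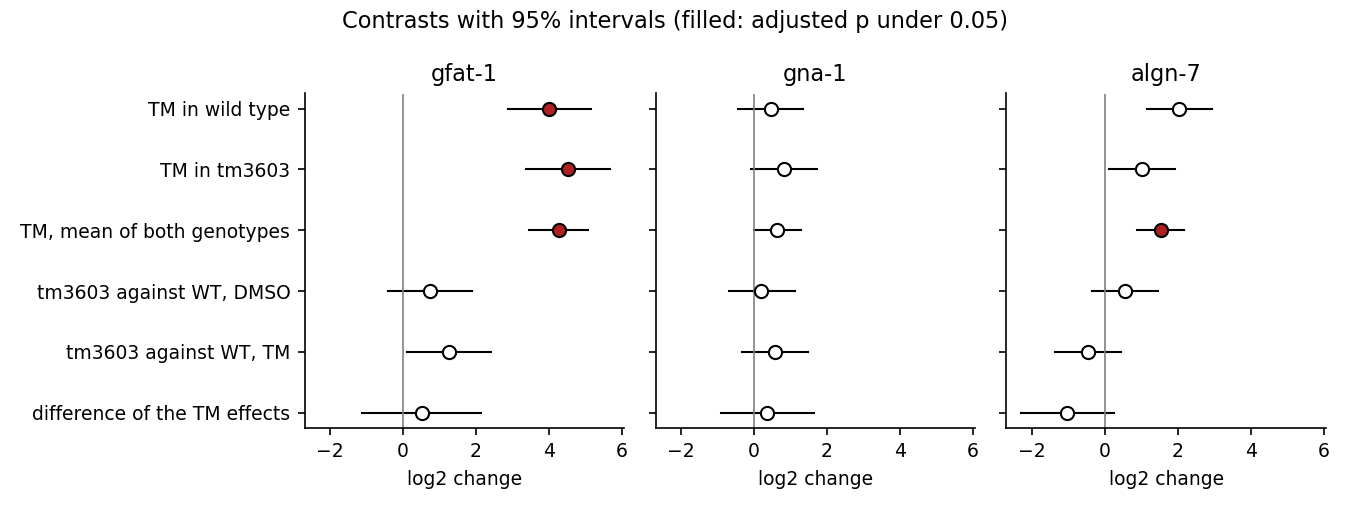
Log2 change (horizontal axis) in 6 contrasts for gfat-1, gna-1 and algn-7, with points at limma's estimate, lines for the 95% interval and filled points where the adjusted p was under 0.05. Filled points stand at 4.01, 4.52 and 4.26 for gfat-1 and at 1.54 for algn-7, while gna-1 has none and no contrast between genotypes has a filled point.

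The comparison of genotypes asks whether larvae labelled as manf-1 mutants differ in these genes before or under the drug. No probe set of the 3 tested genes passed. Without adjustment only gfat-1 under tunicamycin had a limma p under 0.05. With vehicle the log2 difference of mutants from wild type was 0.74 (SE 0.53, limma adjusted p = 0.969) for gfat-1, 0.21 (SE 0.42, adjusted p = 0.987) for gna-1 and 0.55 (SE 0.42, adjusted p = 0.97) for algn-7. In that contrast 0.0068% of all tested probe sets passed. The gfat-1 difference rested on wild-type vehicle array 1 and was 0.06 without it.

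Under tunicamycin gfat-1 was higher on all 3 mutant arrays, 8.85 to 9.09, than on any wild-type array, 6.88 to 8.25. The difference was 1.25 (SE 0.53, 95% interval 0.11 to 2.40) with an unadjusted p of 0.034 and an adjusted p of 0.878 by limma. A higher mutant signal without overlap was seen for 5.16% of tested probe sets in this contrast, and 0.0408% passed the threshold. The spread of gfat-1 was 0.72 in treated wild type and 0.13 in treated mutants (SD, n = 3 each), and without wild-type tunicamycin array 3 the difference was 0.84 (adjusted p = 0.903). For gna-1 and algn-7 the differences under tunicamycin were 0.58 (SE 0.42, adjusted p = 0.935) and -0.46 (SE 0.42, adjusted p = 0.954).

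The test of whether the genotypes respond differently is the interaction, the mutant tunicamycin change minus the wild-type change. It was 0.51 (SE 0.75, 95% interval -1.11 to 2.13, limma adjusted p = 0.995) for gfat-1 and 0.37 (SE 0.59, interval -0.91 to 1.64, adjusted p = 0.995) for gna-1. For algn-7 it was -1.02 (SE 0.59, interval -2.29 to 0.26, adjusted p = 0.995). These intervals are wide. For gfat-1 a mutant response from 0.464 to 4.37 times the wild-type one lies within the interval, and for algn-7 one from 0.204 to 1.19 times. Over all tested probe sets 0.0068% passed for the interaction.

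**Figure D3:**
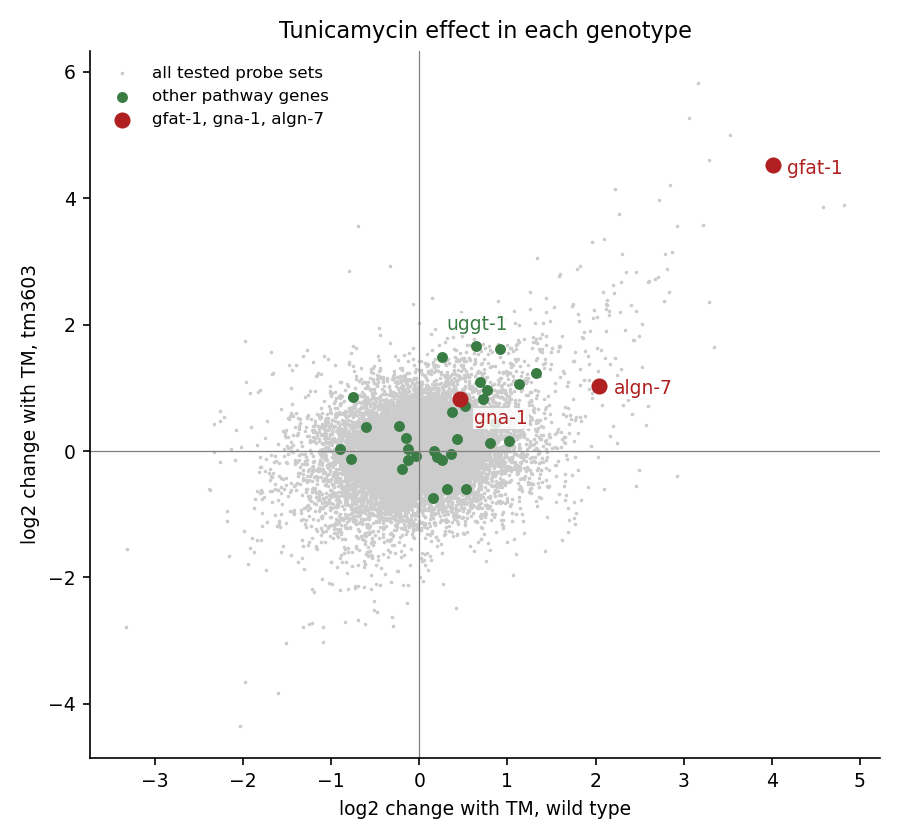
Log2 change with tunicamycin in wild type (horizontal axis) against that in tm3603 mutants (vertical axis) for 14709 tested probe sets (grey), 31 other genes of the pathway (green) and gfat-1, gna-1 and algn-7 (red). The point of gfat-1 lies far from the grey mass at 4.01 and 4.52, algn-7 at 2.05 and 1.03 lies at its edge, and gna-1 at 0.46 and 0.82 lies inside it.

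Other genes of sugar supply, UDP-N-acetylglucosamine use and N-glycosylation were taken from a list of 40 written from textbook knowledge, of which 31 had a tested probe set and are counted here with 1 probe set each. They moved less than gfat-1. With tunicamycin 0 of 31 passed in wild type (0.36% of all tested probe sets rose and 0.034% fell), and the log2 changes ran from -0.90 to 1.32. Without adjustment 5 of 31 had p-values under 0.05 there: aagr-3, stt-3, ribo-1 and ostb-1 with higher signals and algn-3 with a lower one. The counts at that level were 7 of 31 for mutants and 7 of 31 averaged, and the shares of all tested probe sets were 8.02% in wild type, 8.89% for mutants and 11.2% averaged. In mutants 1 of 31 rose and 0 fell (0.659% and 0.415% of all tested probe sets), with changes from -0.75 to 1.66. Averaged over genotypes 3 of 31 rose and 0 fell (1.17% and 0.734% of all). The median change over the 31 genes was 0.32 in wild type, 0.19 in mutants and 0.08 averaged, beside -0.02 in each case over all 10844 genes tested.

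Of the 31 listed genes, 10 serve the lipid-linked glycan beyond the algn-7 step, 5 its transfer to proteins and 4 trimming and the folding check. The 3 listed genes that rose act, like these, after the start of glycosylation. They were uggt-1, whose product adds glucose back to glycoproteins that are not yet folded, ostb-1, a subunit of the oligosaccharyltransferase that moves the finished glycan onto proteins, and aagr-3, a glucosidase II homologue that trims it. The signal of uggt-1 went from 6.83 ± 0.30 to 8.49 ± 0.19 in mutants (SD, n = 3 each), a change of 1.66 (SE 0.37, limma adjusted p = 0.0478). Averaged over genotypes the changes were 1.15 (SE 0.26, adjusted p = 0.0366) for uggt-1, 1.27 (SE 0.27, adjusted p = 0.0282) for ostb-1 and 1.28 (SE 0.26, adjusted p = 0.0208) for aagr-3. Other probe sets gave averaged changes of 1.26 (adjusted p = 0.0168) and 0.73 (adjusted p = 0.268) for uggt-1 and of 1.03 (adjusted p = 0.26) for aagr-3. These calls depend on single arrays and settings. The mutant call of uggt-1 was lost under 12 of 22 alternatives, among them 9 of 12 that leave out 1 array, with adjusted p-values up to 0.19. Of 21 alternatives, 12 lost the averaged call of uggt-1, 9 that of ostb-1 and 6 that of aagr-3, including leaving out the 4 arrays numbered 2 (adjusted p = 0.143, 0.19 and 0.0693).

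By role, the 4 genes that feed glucose phosphate into the cell's pool, hxk-1, hxk-2, hxk-3 and gpi-1, had tunicamycin changes from -0.13 to 0.20 in wild type and from -0.75 to 0.00 in mutants, and none passed. The value for pgm-3, the phosphoacetylglucosamine mutase that acts after acetylation, was -0.77 in wild type and -0.13 in mutants. The 4 genes that use UDP-N-acetylglucosamine, remove N-acetylglucosamine from proteins or carry nucleotide sugars had a median of 0.12 and 0.06. Among them the nucleotide sugar transporter gene nstp-4 was at 1.48 in mutants (adjusted p = 0.178) without passing. The 10 genes that extend the lipid-linked glycan beyond the algn-7 step, or make its mannose donor, had medians of 0.29 and 0.07 and 0 passed in either genotype.

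The 5 oligosaccharyltransferase genes had medians of 0.77 and 0.96, with 3 of 5 higher without overlap in each genotype, beside 5.43% of all tested probe sets in wild type and 7.55% for mutants. The 3 genes were ostb-1, ribo-1 and stt-3 in wild type and ostb-1, ribo-1 and ostd-1 in mutants. The gene dad-1 was at -0.23 in wild type and 0.40 in mutants, with overlap in both. The largest values were 1.13 for stt-3, the catalytic subunit, in wild type (SE 0.42, adjusted p = 0.515) and 1.62 for ostb-1 in mutants (SE 0.38, adjusted p = 0.069). The 4 genes of glycan trimming and the folding check had medians of 0.66 and 1.16. The 3 genes listed by sequence name, C36A4.4, T03F6.3 and F59B2.3, had medians of 0.73 and 0.82, with changes from -0.75 to 1.02 in wild type and from 0.16 to 0.86 in mutants, and none passed. For the contrasts between genotypes and the interaction 0 of 31 passed. Without adjustment, limma gave p-values under 0.05 to 0 of 31 with vehicle, 3 of 31 under tunicamycin and 1 of 31 for the interaction. The shares of all tested probe sets at that level were 5.23%, 5.51% and 4.62%, so these counts lie near the background. The smallest p-values there belonged to uggt-1, T03F6.3 and algn-1 with vehicle, to algn-3, dpm-1 and hxk-1 under tunicamycin, and to T03F6.3, nstp-4 and uggt-1 for the interaction, with limma adjusted p-values from 0.769 to 0.995.

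**Figure D4:**
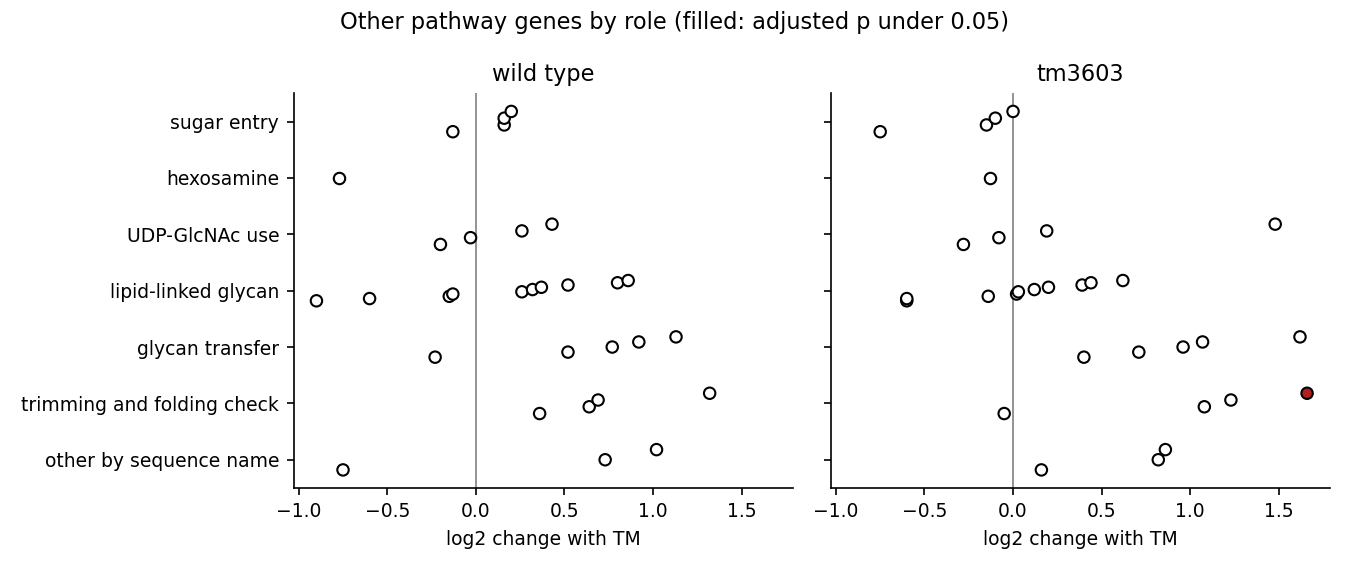
Log2 change with tunicamycin (horizontal axis) of the 31 other pathway genes, 1 point per gene, by role (vertical axis) in wild type and in tm3603 mutants, filled where limma's adjusted p was under 0.05. Only uggt-1 in mutants, at 1.66, is filled, and the oligosaccharyltransferase genes (glycan transfer) have medians of 0.77 and 0.96 against 0.29 and 0.07 for the lipid-linked glycan genes.

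The genes whose profile over the 4 groups was closest to that of gfat-1 were found from the root mean square difference of the group means, each centred on its own average. Over 10843 other genes the closest were dpy-18, which encodes a subunit of the enzyme that hydroxylates collagen prolines, at 0.36, ckb-2, a choline kinase, at 0.41, and warf-1, an Arf-like GTPase, at 0.46. Next came the zinc transporter gene zipt-7.1 at 0.50 and lips-11, a lipase-related gene, at 0.53. Since these genes were picked for group means like those of gfat-1, a rise with tunicamycin was largely fixed by the choice and is given as a description. The changes ran from 2.72 for zipt-7.1 to 4.82 for ckb-2 in wild type and from 3.89 for ckb-2 to 5.27 for warf-1 in mutants. Of these 5, ckb-2 changed more than gfat-1 in wild type, and dpy-18 and warf-1 did in mutants. The vehicle signals of lips-11 were below the background percentile on 6 of 6 arrays, so its lower level was not measured. Those of zipt-7.1 were above it on only 4 of 6 arrays. With the offset of 16 the wild-type changes were 1.79 for zipt-7.1 and 1.37 for lips-11. The wild-type call of zipt-7.1 (adjusted p = 0.00754 in the fit of all arrays) was lost in a fit of the 6 wild-type arrays alone (adjusted p = 0.0771). It was also lost without the arrays numbered 2 (adjusted p = 0.121). The wild-type call of lips-11 was lost in the fit of the 6 wild-type arrays (adjusted p = 0.0624).

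**Figure D5:**
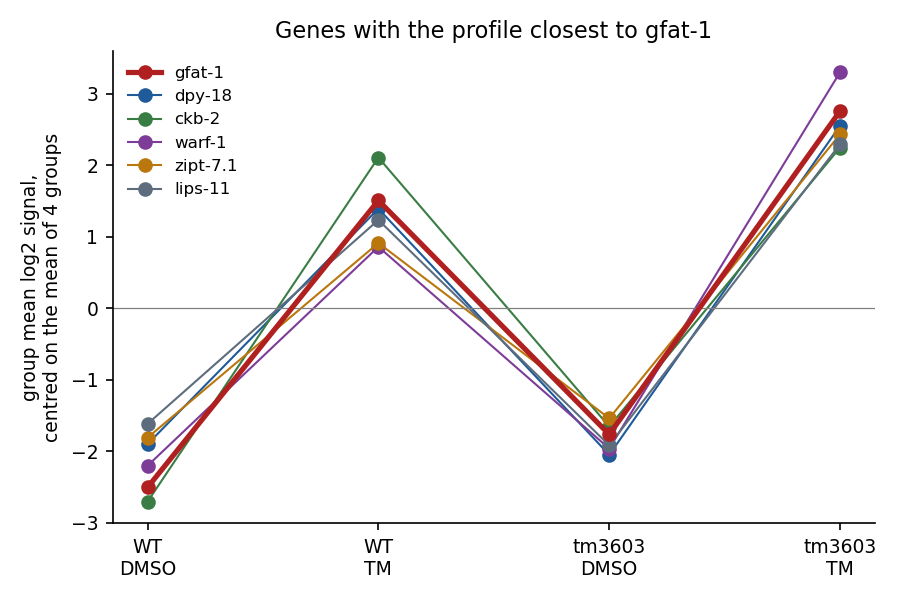
Group mean log2 signal, centred on the mean of the 4 groups (vertical axis), for gfat-1 (thick red line) and the 5 genes with the closest profile, over genotype and treatment (horizontal axis). All 6 lines are below 0 in both DMSO groups and above 0 in both TM groups, with root mean square differences from gfat-1 of 0.36 to 0.53.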

How the data were processed

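Biotin-labelled cRNA from 6 ug of total RNA was hybridised to 1-colour Affymetrix arrays, 12 in 4 groups of 3, per the labels' protocols. The authors deposited 1 table of log2 signals for 22625 probe sets; the log2 scale was read from the range of the values, 1.232 to 14.46. MAS5 is named per the submitters' processing notes without a role, and the normalization method, aligner or build is not given in the sources used here. Any scaling of arrays to one another would hide a shift shared by most transcripts, and compression of low signals would shrink changes of dim probe sets.

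The 77 control probe sets were left out. Genes were named from the platform annotation and checked against the RefSeq gene table of assembly WBcel235, and no coordinates are given because no build is named for the values. Group means were fitted with limma 3.58.1 in R 4.3.3 (eBayes with a mean-variance trend; degrees of freedom were 8 from the residuals and 5.934 from the prior). Two-sided tests of 6 contrasts covered 14709 probe sets. Fold changes are antilogs on the deposited scale. Where a pathway gene had several probe sets, the tested one with the highest mean was used. Genes of the list are named where they passed in a contrast or, where fewer than 3 passed, had its 3 smallest p-values. Of the 40 listed genes 6 had no probe set assigned to them alone by the annotation used here and 3 did not pass the filter. The members and lists were chosen with earlier results of these data known, and so was leaving out the arrays numbered 2. Arrays with the same number did not deviate together throughout (5 of 18 correlations over 0.1), and the fit has no block. Those numbered 2 did deviate together, though weakly. Across groups, with each group's mean taken off, they correlated at 0.05 to 0.23 with one another. Their correlations with arrays of other numbers were -0.22 to -0.01, which follows in part from taking off the group means and is no separate observation. Fits with a block and without the arrays numbered 2 are given as alternatives. No 2 arrays were identical.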

Additional observations from a re-analysis of the deposited data

Results flagged for a closer look

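The gfat-2 probe set 173022_at was singled out because its wild-type arrays were all lower with tunicamycin and its mutant arrays all higher. The mutant change minus the wild-type change was 0.71 (SE 0.28), with an unadjusted p of 0.0251 and a limma adjusted p of 0.99 when all 22548 probe sets were tested. This p-value only describes the pattern for which the probe set was picked. With vehicle the difference of mutants from wild type was -0.68 (SE 0.20, unadjusted p of 0.00476, adjusted p = 0.989). Among probe sets that passed the filter, which this one did not, 4.62% had an unadjusted limma p under 0.05 for the interaction. The share was 5.23% for the genotype difference with vehicle. The second gfat-2 probe set gave 0.02 (SE 0.25) for the same difference of changes. Of the 12 values of 173022_at, 10 were below the background percentile of 3.34.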

How the results depend on the processing

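Each log2 change of gfat-1, gna-1 and algn-7 was recomputed under up to 22 alternatives, 390 values in all. None of these changed direction, and 384 stayed on the same side of the threshold. The exceptions are the gfat-1 and algn-7 calls that follow; for each the cause was not tested, apart from the fewer arrays in some fits. In wild type, fitting only the 6 arrays compared left 0 member probe sets past the threshold instead of 1 (gfat-1 4.01, adjusted p = 0.0624). Quantile normalization (algn-7 2.02), the filter at the 60th percentile and the fit without a trend (both 2.05) gave 2. Without single arrays that count was 1 to 2, with algn-7 between 1.78 and 2.36 and gfat-1 between 3.33 and 4.42. Without the 4 arrays numbered 2 the averaged count was 1 instead of 2 (algn-7 1.37). With the replicate number as a block, which the main fit left out, gfat-1 had 4.01 (adjusted p = 0.00337) for wild type and 4.52 (0.000794) for mutants, and the averaged change of algn-7 was 1.54 (0.02). The block changed no member's call. Among the 31 other genes the count past the threshold ranged over the alternatives from 0 to 2 in mutants and from 0 to 4 averaged, and was 0 in every other contrast. Signals near background limit gfat-2 and gna-2.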
